A study of Mus musculus with 4 samples.

Results

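Autophagy machinery genes encode the proteins that build the autophagosome, the double membrane that encloses cytoplasm and carries it to the lysosome for breakdown. In the mouse CA1 libraries described here, the group held 41 of the 28193 genes counted, out of 16973 protein-coding genes. Its members were the protein-coding genes whose symbols name the Atg proteins, the Ulk kinases, beclin and its partners, the Map1lc3 and Gabarap families, the Wipi proteins, cargo receptors and the transcription factors Tfeb and Tfe3. The rule used gene symbols alone and no measured value.

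fosTRAP-seq reads the RNA on HA-tagged ribosomes of neurons in which the c-Fos promoter was active during a tagging window. Male C57BL/6J mice of 3 to 5 months received 1 AAV with c-Fos-driven, tamoxifen-dependent Cre and 1 AAV with a Cre-dependent HA-tagged mRpl22, a ribosomal protein. Both groups were given 4-hydroxytamoxifen and were sleep deprived for 5 h on day 0. A second session followed on day 7, in which SD mice were kept awake again for 5 h by gentle handling and NSD mice were not, and CA1 was collected at ZT5. Each library pooled the CA1 of 5 mice and each group gave 2 libraries, so all spreads below are between pools of mice. The labels name the genotype as cFos-Cre:Ribotag and the tissue as dorsal hippocampus, whereas the methods describe injected vectors and microdissected CA1. No library of unselected CA1 RNA was analysed here, so enrichment in the tagged neurons was not measured.

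The 4 libraries held 153511705 to 195910235 counts, of which the autophagy machinery took 0.243% to 0.253%. All 41 members passed the filter of more than 5 counts in every library, and their counts ran from 96 to 84692 per gene and library. The 7 markers of CA1 pyramidal neurons summed to between 6041 and 6588 CPM (a count as a share of the library total, on a common scale set with edgeR's TMM factors). Camk2a alone gave 4090 to 4379 CPM of this sum, while Wfs1 was at 279 to 441 CPM and Fibcd1 at 150 to 217 CPM. Markers of other cells were present too, with 7 astrocyte genes at 3161 to 3765 CPM, 7 interneuron genes at 754 to 860 CPM and 8 microglial genes at 78.9 to 102 CPM. Most of the astrocyte sum came from 1 gene, Slc1a2, at 2584 to 3147 CPM. The 7 endothelial markers summed to 40.0 and 54.0 CPM in NSD and to 33.0 and 21.8 CPM in SD, and none of them was at 0. In ribosome-bound RNA of pooled tissue, fewer cells of a type, less RNA per cell and less of it in the pull-down cannot be told apart.

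Autophagosome formation starts with the Ulk kinase complex, which is held back by mTORC1 when nutrients are plentiful. It proceeds through a lipid kinase that marks the new membrane, through proteins that supply lipid, and through a pair of ubiquitin-like conjugation reactions that attach Atg8 proteins (the Map1lc3 and Gabarap families) to it. Cargo receptors then link the material to be degraded to the Atg8 proteins. In neurons autophagosomes form largely in axons and travel towards the cell body, and loss of core genes such as Atg5 or Atg7 leads to neurodegeneration in mice.

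Measured per kilobase of each gene's canonical transcript, the autophagy genes spanned a wide range of levels in these libraries. The highest was Gabarapl1, an Atg8 family member, at 215 and 231 CPM per kilobase in NSD and 231 and 246 in SD. Sqstm1, which encodes the cargo receptor p62, followed at 75.0 and 77.8 CPM per kilobase in NSD and 74.4 and 75.4 in SD. Map1lc3b, the LC3 gene whose protein is the usual marker of autophagosomes, lay beside it at 72.6 and 78.3 CPM per kilobase in NSD and 82.2 and 84.8 in SD. The NSD values of Sqstm1 and Map1lc3b overlapped on this scale. With the union of all annotated exons as the length they were apart, at 29.9 and 31.0 CPM per kilobase for Sqstm1 and 8.47 and 9.14 for Map1lc3b in NSD, while Gabarapl1 remained the highest. At the other end stood Atg4a, a protease gene, and its copy Atg4a-ps, at means of 0.769 and 0.344 CPM per kilobase in NSD.

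**Figure D1:**
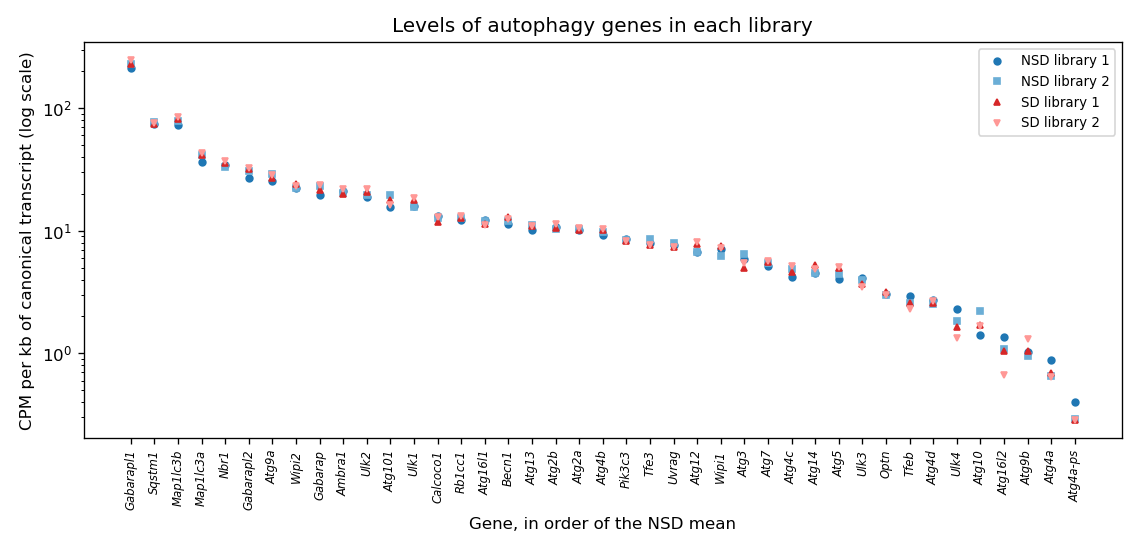
Levels of the 41 autophagy machinery genes in CPM per kilobase of canonical transcript (log axis), with 1 point for each library and genes in order of their NSD mean. The 4 points of a gene lie close together next to the spread between genes, from Gabarapl1 at 215 to 246 down to Atg4a-ps at 0.285 to 0.399.

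Some gene families were uneven in level and others were not. Gabarapl1 made up 56.5% to 58.0% of the summed per-kilobase level of the 5 Atg8 genes in every library, and exceeded Gabarap by 9.94 to 10.9 times. Atg9a, which encodes the lipid scramblase of the vesicles that seed the membrane, exceeded its paralog Atg9b by 21.8 to 30.4 times. The kinases Ulk1 and Ulk2 were closer, at a ratio of 0.797 to 0.862, and Atg2a and Atg2b were nearly level, at 0.914 to 0.998. Wipi2 exceeded Wipi1 by 3.12 to 3.62 times, and Tfe3 exceeded Tfeb by 2.71 to 3.31 times. These ratios rest on the canonical transcript as the length. With the union of all annotated exons the mean ratio of Gabarapl1 to Gabarap was 6.59 and that of Atg9a to Atg9b 16.1, and Map1lc3a went from 0.501 to 0.532 times the level of Map1lc3b to 2.74 times it, so the order of those LC3 genes is not settled by these data.

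Few differences between SD and NSD in the autophagy machinery passed a test, and the estimates ran from -0.53 to 0.26 on the log2 scale. In edgeR's quasi-likelihood fit over 22338 genes, a gene was called when its Benjamini-Hochberg adjusted p was under 0.05 and SD and NSD differed over 1.2-fold, and 0 of the 41 members were higher and 0 were lower in SD. Over all genes tested 0.77% were called higher and 2.33% lower, and over protein-coding genes 0.952% and 0.54%. At an unadjusted p under 0.05, 3 members (Ulk1, Atg5 and Atg12) were higher, beside 6.86% of all genes and 8.86% of protein-coding genes. At the same threshold 3 (Ulk4, Atg3 and Atg16l2) were lower, beside 12.2% and 5.76%. DESeq2, with the same thresholds, called 1 member higher (Atg12) and 0 lower, where it called 3.0% of all genes and 3.92% of protein-coding genes higher, and 5.8% and 1.79% lower.

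The numbers of the libraries match the batch numbers in the labels, so that a batch held 1 library of each group. With this number as a block in edgeR, 2 members were lower in SD (Ulk4 and Atg16l2) and 0 were higher, beside 8.47% of all genes and 3.29% of protein-coding genes called lower and 2.99% and 3.77% called higher. Without the fold threshold, Ulk1 and Atg12 were also higher in that fit, beside 4.95% of all genes and 6.52% of protein-coding genes, and the 2 lower genes stood beside 8.87% and 3.86%.

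The median log2 fold change of the 41 members was 0.04, against -0.02 over all genes and 0.02 over protein-coding genes, and the members ran from -0.53 to 0.26. Of the 41, 25 lay above 0 (61.0%, beside 47.2% of all genes and 54.2% of protein-coding genes). SD exceeded NSD in every cross-wise comparison of libraries in 16 members, beside 22.0% of all genes and 26.5% of protein-coding genes. SD was below NSD in the same sense in 10 members, beside 27.5% and 20.0%, and the groups overlapped in the other 15. Within batches the sign was positive in both for 20 members, negative in both for 12, and differed for 9.

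The precision of these differences can be stated as well as their size. The median standard error was 0.08 on the log2 scale. For 14 members, among them Sqstm1, Atg7, Rb1cc1, Atg9a, Atg16l1 and Pik3c3, the 95% interval of the edgeR estimate lay wholly inside a 1.2-fold change in either direction. For 31 members the interval did not reach a 1.2-fold fall and for 21 it did not reach a 1.2-fold rise. The intervals of 3 low genes (Atg10, Atg4a and Atg4a-ps) reached past 1.2-fold on both sides. Of the 41 members, 26 share exon bases with another gene. For 15 of these, among them Ulk4, Atg16l2, Map1lc3b, Atg10, Atg4a and Atg4a-ps, that gene had at least 10% of their own count. Over the 26 members without such a neighbour the median log2 fold change was 0.06, and 0 of them were called by edgeR, with or without the block, or by DESeq2, with 2 (Ulk1 and Atg5) at an unadjusted p under 0.05.

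**Figure D2:**
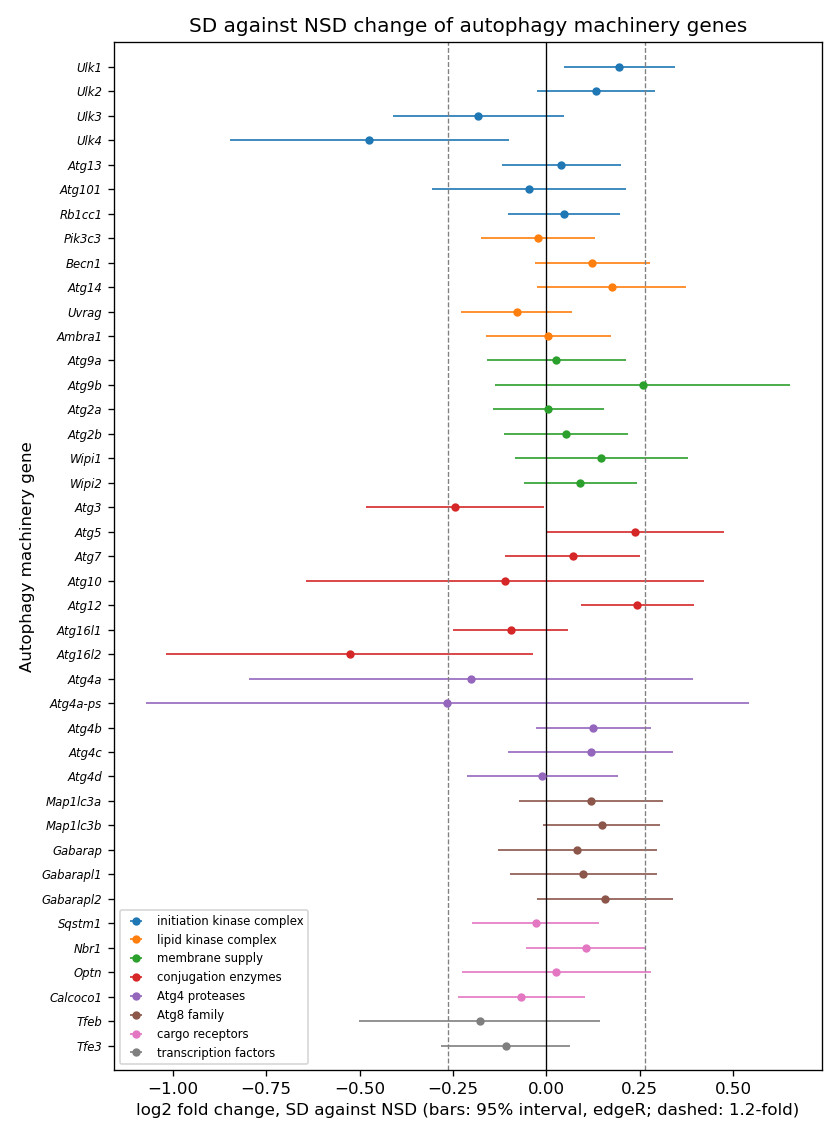
Log2 fold changes, SD against NSD, of the 41 autophagy machinery genes from the edgeR fit, coloured by role, with 95% intervals as bars and dashed lines at 1.2-fold. Most intervals cross 0, and those of Ulk1, Atg5 and Atg12 lie above it while those of Ulk4, Atg3 and Atg16l2 lie below it.

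The initiation complex held genes on both sides of 0. Ulk1 (ENSMUSG00000029512, chr5:110932354-110957963 of GRCm39, minus strand), the kinase that starts autophagosome formation, measured 97.2 and 94.9 CPM in NSD and 108 and 112 CPM in SD. The lower SD value exceeded the higher NSD value. The log2 fold change was 0.20 ± 0.06 (SE), a 1.15-fold difference with a 95% interval of 1.03 to 1.27, and an adjusted p of 0.141 by edgeR with Benjamini-Hochberg adjustment. With the replicate block edgeR's adjusted p was 0.0341 and DESeq2 gave 0.0396, with a fold change under 1.2 in both. Ulk2, the close paralog of Ulk1, stood at 127 and 130 CPM in NSD and 137 and 145 CPM in SD, a log2 fold change of 0.13 that did not pass the test.

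Ulk4 (ENSMUSG00000040936, chr9:120784417-121106263, minus strand), a Ulk family member that is predicted to lack kinase activity and is not part of the Ulk1 complex, measured 9.55 and 7.52 CPM in NSD and 6.82 and 5.48 CPM in SD. The SD libraries lay below both NSD libraries, and in each group library 1 lay above library 2. Its log2 fold change was -0.47 ± 0.16 (SE), with an adjusted p of 0.154 by edgeR with Benjamini-Hochberg adjustment. With the replicate block Ulk4 fell by 0.47 on the log2 scale, at an adjusted p of 0.0112 by edgeR with Benjamini-Hochberg adjustment. Ulk4 shares 765 exon bases with Ctnnb1 on the opposite strand, whose count was 3932% of that of Ulk4 and whose log2 fold change was 0.07. The kit keeps strand, but whether the counting used it was not given in the sources used here, and the part of Ctnnb1 reads in the Ulk4 count was not tested.

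The partners of Ulk1 stayed near 0. Rb1cc1 (FIP200, the scaffold of the complex), Atg13 (its regulatory subunit) and Atg101 (which stabilises Atg13) had log2 fold changes of 0.05, 0.04 and -0.05, and their libraries overlapped between groups. Ulk3, a relative with a role in Hedgehog signalling, was at 11.8 and 11.2 CPM in NSD and 10.4 and 9.85 CPM in SD, a log2 fold change of -0.18 that did not pass the test.

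The lipid kinase complex makes the phosphoinositide that recruits later factors. Becn1 (beclin 1, ENSMUSG00000035086), its regulatory subunit, measured 49.6 and 52.1 CPM in NSD and 56.5 and 54.3 CPM in SD. Both SD libraries were above both NSD libraries. The log2 fold change was 0.12 ± 0.07 (SE), with an adjusted p of 0.379 by edgeR with Benjamini-Hochberg adjustment. Atg14, which directs the complex to autophagosome formation, and Uvrag, which replaces it in the endosomal form, lay on opposite sides with log2 fold changes of 0.17 and -0.08. The catalytic subunit Pik3c3 (-0.02) and Ambra1 (0.01), a scaffold that links the kinase to ubiquitin ligases, lay close to 0, and none of the 5 passed the test.

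The membrane suppliers lay above 0 in 6 of 6 genes, with log2 fold changes from 0.01 for Atg2a to 0.26 for Atg9b, and 0 of them passed the test in edgeR, with or without the block, or in DESeq2, or had an unadjusted p under 0.05 in edgeR. Atg2a and Atg2b, which transfer lipid into the growing membrane, and Atg9a differed by about 0.05 or less, and the count above 0 fell to 5 with scaling on protein-coding genes alone and to 3 without SD library 2. Atg9b measured 4.02 and 3.71 CPM in NSD and 4.11 and 5.13 CPM in SD. Its values hardly separated between groups in batch 1, and the log2 fold change of 0.26 ± 0.17 (SE) had an adjusted p of 0.490 by edgeR with Benjamini-Hochberg adjustment. Atg9b shares 297 exon bases with the endothelial gene Nos3 on the opposite strand, whose log2 fold change was -0.76. Wipi1 and Wipi2, which bind the lipid mark and recruit Atg16l1, had SD libraries above NSD libraries, at log2 fold changes of 0.15 and 0.09.

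The conjugation enzymes held 4 of the 6 genes with an unadjusted p under 0.05, at 2 on each side. Atg12, the ubiquitin-like protein that is joined to Atg5, measured 35.3 and 35.7 CPM in NSD and 41.5 and 42.4 CPM in SD. The groups were far apart next to the spread within each. The difference on the log2 scale was 0.24 ± 0.07 (SE), a 1.18-fold difference with a 95% interval of 1.07 to 1.32, and its adjusted p of 0.0879 by edgeR with Benjamini-Hochberg adjustment was the lowest of the 41 members. DESeq2 gave a log2 fold change of 0.27 and an adjusted p of 0.0194, just past the fold threshold of 0.26, and edgeR with the block gave 0.0173 with a fold change under 1.2. Atg12 shares 215 exon bases with Ap3s1 on the opposite strand, which had 42.0% of its count and a log2 fold change of 0.22.

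Atg5 (ENSMUSG00000038160, chr10:44144354-44240287, plus strand), the acceptor of Atg12, measured 9.58 and 10.7 CPM in NSD and 11.8 and 12.1 CPM in SD. Its SD libraries lay above both NSD libraries, with a log2 fold change of 0.24 ± 0.10 (SE) and an adjusted p of 0.260 by edgeR with Benjamini-Hochberg adjustment. Atg7 (ENSMUSG00000030314), the activating enzyme that both conjugation reactions need, stood at 19.5 and 20.5 CPM in NSD and 20.9 and 21.2 CPM in SD, a log2 fold change of 0.07 ± 0.08 (SE).

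Atg3 (ENSMUSG00000022663, chr16:44979148-45008901, plus strand), the enzyme that hands Atg8 proteins to lipid, lay in the other direction, at 13.0 and 14.1 CPM in NSD and 10.8 and 12.0 CPM in SD. Both SD libraries were below both NSD libraries. The log2 fold change was -0.24 ± 0.10 (SE), with an adjusted p of 0.248 by edgeR with Benjamini-Hochberg adjustment. Atg3 shares 820 exon bases with Slc35a5 on the opposite strand, whose count was 278% of its own and whose log2 fold change was -0.03. Atg10, the enzyme that joins Atg12 to Atg5, was measured with a wide interval at a log2 fold change of -0.11.

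Atg16l2 had the most negative log2 fold change of the 41 members. It is a paralog of Atg16l1, the scaffold that brings the Atg12 and Atg5 conjugate to the membrane, and is thought to be dispensable for canonical autophagy. It measured 9.22 and 7.38 CPM in NSD and 7.06 and 4.47 CPM in SD, with all NSD values above all SD values and library 1 above library 2 in each group. The log2 fold change was -0.53 ± 0.21 (SE), with an adjusted p of 0.228 by edgeR with Benjamini-Hochberg adjustment. With the replicate block it fell by 0.55 on the log2 scale, at an adjusted p of 0.00839 by edgeR with Benjamini-Hochberg adjustment. Without SD library 1 the unblocked estimates were -0.89 for Atg16l2 and -0.64 for Ulk4, at edgeR's adjusted p of 0.000396 and 0.0162, and without SD library 2 they were smaller, at -0.22 and -0.31. Without NSD library 1 they were -0.33 and -0.26.

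Atg16l1 itself was at 38.4 and 37.8 CPM in NSD and 36.2 and 35.3 CPM in SD, a log2 fold change of -0.10 that did not pass the test. The ratio of Atg16l1 to Atg16l2 per kilobase was 8.93 and 11.0 in NSD and 11.0 and 16.9 in SD, so that NSD library 2 and SD library 1 were level. With the union of all annotated exons as the length the mean ratio was 3.67. Atg16l2 shares 128 exon bases with Fchsd2 on the opposite strand, whose count was 694% of its own and whose log2 fold change was -0.07. Summed markers of endothelial cells (above) were lower in SD too, but their order within NSD was the reverse of that of Ulk4 and Atg16l2. The sum was 40.0 CPM in NSD library 1 and 54.0 CPM in NSD library 2. Within SD, library 1 was the higher for the sum as for the 2 genes. Among the 7 endothelial markers, edgeR with the block called 5 lower, DESeq2 4 and edgeR without the block 0. Microglial markers summed to 102 and 82.4 CPM in NSD and 102 and 78.9 CPM in SD. The part of these cells in the values of Ulk4 and Atg16l2 was not tested. Of the 7 CA1 markers, 3 (Wfs1, Fibcd1 and Neurod6) were also called lower by edgeR with the block and by DESeq2. Without the block edgeR called 0. Mpped1, Pou3f1, Slc17a7 and Camk2a were not called, at log2 fold changes of 0.14, 0.08, 0.08 and -0.03. With the block 8.47% of all genes and 3.29% of protein-coding genes were called lower, and with DESeq2 5.8% and 1.79%.

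**Figure D3:**
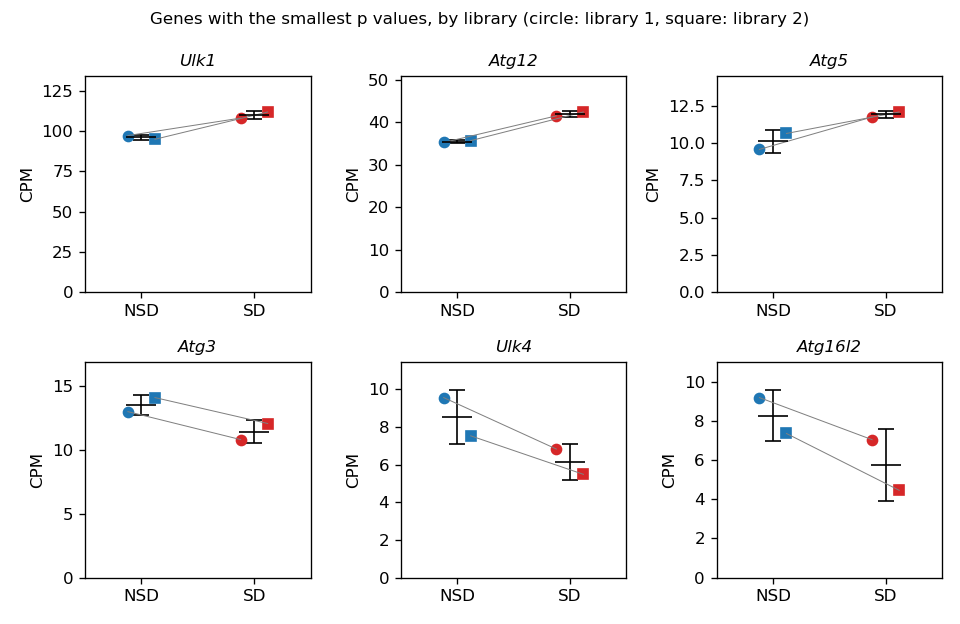
CPM in each library of the 6 autophagy genes with an unadjusted edgeR p under 0.05, with circles for library 1, squares for library 2, grey lines joining libraries of the same batch, and bars for the mean ± SD (n = 2). SD points lie above both NSD points for Ulk1, Atg12 and Atg5 and below both for Atg3, Ulk4 and Atg16l2, where library 1 of Ulk4 and Atg16l2 exceeds library 2 in each group.

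The Atg8 family lay above 0 in 5 of 5 genes, with log2 fold changes between 0.08 and 0.16, and 0 of them passed the edgeR test with or without the block or the DESeq2 test. At an unadjusted p under 0.05 in edgeR without the block the count was also 0. Gabarapl1 (ENSMUSG00000030161) measured 391 and 420 CPM in NSD and 420 and 448 CPM in SD, so that the lower SD library was level with the higher NSD library. Its log2 fold change was 0.10 ± 0.09 (SE), with a 95% interval of -0.10 to 0.30. Map1lc3b (ENSMUSG00000031812) measured 64.5 and 69.6 CPM in NSD and 73.1 and 75.4 CPM in SD. Here the groups did not overlap, and the log2 fold change was 0.15 ± 0.07 (SE), with an adjusted p of 0.294 by edgeR with Benjamini-Hochberg adjustment. Map1lc3b shares 68 exon bases with Zcchc14 on the opposite strand, whose count was 313% of its own and whose log2 fold change was 0.03.

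Map1lc3a (ENSMUSG00000027602) was at 29.9 and 34.3 CPM in NSD and 34.4 and 35.3 CPM in SD, with a log2 fold change of 0.12. Gabarap (ENSMUSG00000018567) was at 34.7 and 41.0 CPM in NSD and 38.3 and 41.8 CPM in SD, and its groups overlapped. Gabarapl2 had a log2 fold change of 0.16. In all 5 genes NSD library 1 was the lowest of the 4, and without it the log2 fold change of Gabarap was -0.0030, which left 4 of 5 above 0. The summed CPM of the family was 565 and 617 in NSD and 619 and 655 in SD.

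The Atg4 proteases trim new Atg8 proteins and release them from lipid. Atg4b, the most abundant of them per kilobase, had a log2 fold change of 0.13, Atg4c one of 0.12 and Atg4d one of -0.01, and none passed the test. The estimates for Atg4a were linked to those for a copy of it without introns, Atg4a-ps. The coding sequence of 1188 bases lies in 1 exon in Atg4a-ps, where the Atg4a transcript has 13 exons, and 7 bases differ between them, an identity of 99.4%. The stretch below is shown because it carries 2 of these differences, in capitals, and is otherwise shared by both genes. It is taken from GRCm39, from Atg4a at chrX:139888915-139888974 (plus strand) and from Atg4a-ps at chr3:103553159-103553218 (minus strand).
Atg4a: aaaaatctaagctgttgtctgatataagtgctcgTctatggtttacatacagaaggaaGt
Atg4a-ps: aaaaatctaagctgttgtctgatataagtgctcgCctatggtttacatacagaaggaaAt
Stretches of 150 bases, the length of a read, that occur in both genes made up 9.83% of those of Atg4a and 32.2% of those of Atg4a-ps.

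Atg4a was assigned 329, 227, 280 and 271 counts in NSD 1, NSD 2, SD 1 and SD 2, and Atg4a-ps 140, 96.4, 110 and 114. Neither gene had whole numbers, but their sums were whole within 0.01 in 3 of the 4 libraries, at 469, 390 and 385, and 323.9 in NSD 2. Atg4a-ps received 28.3% to 29.8% of the sum in every library. The log2 fold changes of -0.20 for Atg4a and -0.27 for Atg4a-ps therefore rest on linked estimates. How reads were divided between the genes was not tested. Of the other members, 34 shared no stretch of 150 bases with any other annotated gene.

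The cargo receptors lay close to 0. Sqstm1 (ENSMUSG00000015837) measured 245 and 254 CPM in NSD and 243 and 246 CPM in SD, with overlapping groups. Its log2 fold change was -0.03 ± 0.07 (SE), with a 95% interval of -0.20 to 0.14. Nbr1, a relative of p62 that also binds ubiquitin, had a log2 fold change of 0.11, with SD libraries above NSD libraries. Optn (optineurin, a receptor for damaged mitochondria and bacteria) and Calcoco1 (a receptor for endoplasmic reticulum and Golgi) had log2 fold changes of 0.03 and -0.07, with overlapping libraries, and none of the 4 passed the test.

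Tfeb and Tfe3 encode transcription factors that switch on lysosomal and autophagy genes when mTORC1 is inactive. Tfeb (ENSMUSG00000023990) measured 6.89 and 6.03 CPM in NSD and 6.01 and 5.40 CPM in SD. Its SD libraries lay below both NSD libraries, by little in the case of SD library 1. This gave a log2 fold change of -0.18 ± 0.14 (SE), with an adjusted p of 0.572 by edgeR with Benjamini-Hochberg adjustment. Tfe3 had a log2 fold change of -0.11 and an adjusted p of 0.510 in the same fit, and both genes were below 0 under every alternative fit run.

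Tfeb and Tfe3 bind the CLEAR element, which is TCACGTGA with a G before and a C after it, and related letters around the core CACGTG. RefSeq promoter windows (GRCm38.p6, from 250 bases before to 50 after the start, both strands searched) were matched by symbol for 34 of the 41 members. The 27025 genes had 32851 windows, so a gene could have more than 1 start, and a match in any window counted. The full element occurred in 0 of the 34, where 0.370% of 27025 genes hold it, the inner letters TCACGTGA in 1 (1.12% of all genes) and the core CACGTG, which includes the former, in 4 (8.09% of all genes). The 4 were Atg3, Atg5, Atg7 and Atg14, and the match in Atg14 runs across the start site. The stretches before the start of the other 3, all conjugation enzymes, are shown with every CACGTG in capitals, at chr16:45158732-45158791, chr10:44268279-44268338 and chr6:114670938-114670997 of GRCm38.p6, all on the plus strand.
Atg3: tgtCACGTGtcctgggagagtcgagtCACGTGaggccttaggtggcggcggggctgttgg
Atg5: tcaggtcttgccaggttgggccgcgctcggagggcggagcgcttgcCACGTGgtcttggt
Atg7: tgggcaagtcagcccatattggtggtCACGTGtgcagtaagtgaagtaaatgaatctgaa
Atg3 holds the core at 2 places, which begin 94 and 71 bases before the start, and the latter lies within TCACGTGA. The core begins 14 bases before the start in Atg5 and 132 bases before the start used for Atg7. The Atg7 window lies at chr6:114670846-114671145 of GRCm38.p6, and the gene at chr6:114620058-114837575 of GRCm39. Positions were not converted between the builds, and whether this start is the first of Atg7 was not tested. The log2 fold changes of the 3 genes were -0.24, 0.24 and 0.07, and that of Atg14 was 0.17. None of the 4 was called by edgeR, and an effect of Tfeb or Tfe3 on them was not tested. A match of letters is a description and does not show binding.

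Around the machinery, 97 genes of 4 further lists are reported from the same edgeR fit, and 2 were called higher in SD, beside the shares of all genes given above. Both belong to the 29 genes of mTORC1 and its regulators. Castor2, of the family of arginine sensors of mTORC1, measured 256 and 260 CPM in NSD and 342 and 356 CPM in SD, with the groups far apart. It rose 1.35-fold, a log2 fold change of 0.44 ± 0.08 (SE), at an adjusted p of 0.0378 by edgeR with Benjamini-Hochberg adjustment. Deptor, which binds and inhibits mTOR, measured 37.8 and 34.6 CPM in NSD and 45.6 and 45.9 CPM in SD. It rose 1.26-fold, a log2 fold change of 0.34 ± 0.07 (SE), at an adjusted p of 0.0482 in the same fit of edgeR with Benjamini-Hochberg adjustment. The calls depend on the setting. In this list edgeR with the block called 3 genes higher and DESeq2 4. With edgeR's filterByExpr as the count filter, only 1 gene of the whole table was called higher, so at most 1 of these 2 passed there.

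With the replicate block edgeR also called Sesn3, a sestrin that restrains mTORC1, higher in SD. It measured 220 and 175 CPM in NSD and 261 and 231 CPM in SD, so that SD exceeded NSD in each batch. Its adjusted p was 0.00634 with the block and 0.182 without it, both by edgeR with Benjamini-Hochberg adjustment, and 0.0375 by DESeq2. DESeq2 also called Tsc1, a subunit of the complex that switches off the mTORC1 activator Rheb, which measured 117 and 115 CPM in NSD and 136 and 141 CPM in SD. Its adjusted p was 0.00335 by DESeq2 and 0.0783 by edgeR with Benjamini-Hochberg adjustment. The kinase gene Mtor itself had a log2 fold change of 0.03.

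Neither the other autophagosome genes nor the lysosome genes held a call in edgeR with or without the block or in DESeq2. Of 26 other autophagosome genes, 18 lay above 0 (69.2%, beside 47.2% of all genes and 54.2% of protein-coding genes). Their median log2 fold change was 0.08. In edgeR 4 had an unadjusted p under 0.05, all higher in SD, beside 6.86% of all genes and 8.86% of protein-coding genes. Of the 28 lysosome genes, 17 lay above 0 (60.7%) with a median of 0.02. In edgeR 1 of them had an unadjusted p under 0.05, higher in SD. The median of the mTORC1 list was 0.06, and that of the 14 genes reported here from a list of other cargo receptors and mitophagy genes was 0.07.

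**Figure D4:**
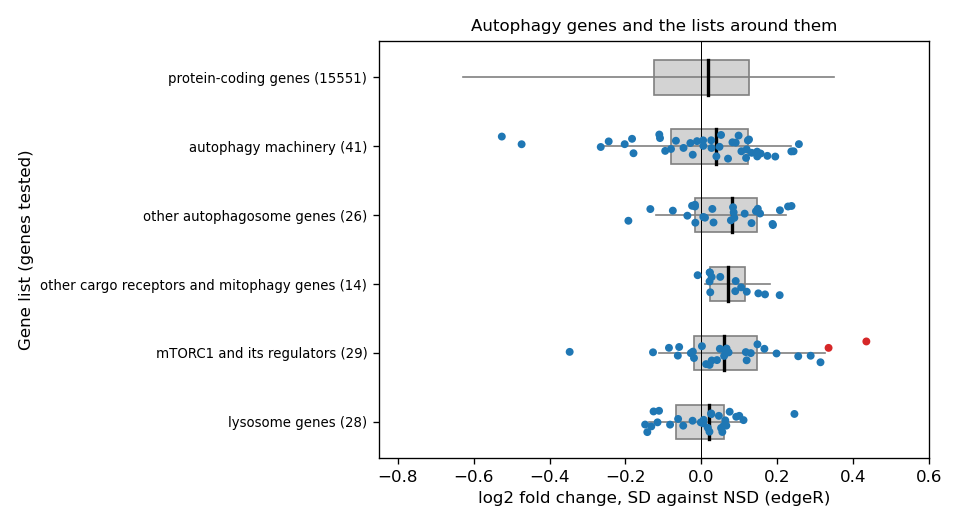
Log2 fold changes, SD against NSD, of protein-coding genes, the autophagy machinery and 4 lists around it, with lines from the 5% to the 95% point, boxes for the quartiles, a black bar for the median and 1 point for each gene reported of the lists (red where edgeR called it). The 41 autophagy genes hold no red point, while Castor2 and Deptor stand at the right of the mTORC1 list.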

How the data were processed

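The authors trimmed reads from stranded total RNA libraries, aligned them with STAR to mm39 and assigned them to Ensembl genes by Partek Flow's expectation-maximization model. The deposited table holds unnormalized estimated counts for each gene. Here these were rounded, genes were kept where each library had more than 5 counts, and SD was compared with NSD in edgeR 4.0.16 (R 4.3.3) by quasi-likelihood tests with TMM scaling, a single term for condition and Benjamini-Hochberg adjustment over all genes. Thresholds for a call were 0.05 for the adjusted p and 1.2 for the fold change. Alternatives were a replicate block, DESeq2 1.42.0, its size factors, other filters, protein-coding genes alone and each library left out. The label's batch number equals the replicate number and so pairs libraries, and deviations of same-numbered libraries had a correlation of 0.178 across genes. Exon overlaps and canonical transcript lengths came from the GENCODE annotation of GRCm39. With 2 libraries per group, the spread between pools limits precision more than counting error does. The fits were also run on simulated counts that had no batch effect and changes larger than those of most members. That run does not show how the fits behave for changes near 1.2-fold or for paired batches. Per-library values are given for members called in any fit, those whose groups did not overlap at an unadjusted p under 0.05, the 3 largest and 3 smallest log2 fold changes, and 10 defining members. Ulk2, Ulk3, Atg16l1 and Mtor were added to these after their values had been seen. Results for 2 genes of the lists around the members are not reported here, and counts and medians of those lists leave them out. Members and lists were chosen with earlier results of these data known.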

Additional observations from a re-analysis of the deposited data

How the results depend on the processing

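The count of autophagy machinery genes called higher in SD was 0 in edgeR and 1 with DESeq2 (Atg12). The count called lower was 0 in edgeR and 2 with the replicate block (Ulk4 and Atg16l2), and ran from 0 to 2 when 1 library was left out, with the 2 coming without SD replicate 1 (Ulk4 and Atg16l2). Leaving out a library leaves 1 in its group, which is then assumed to vary like the other group. With the replicate block and no fold change threshold, an alternative chosen after seeing the data, 2 were higher and 2 lower. The other settings (DESeq2 size factors, no count filter, filterByExpr, protein-coding genes only, no fold change threshold) gave 0 in both directions. The replicate block changed no other call among the members. The median log2 fold change of the members was 0.04 with or without the block, 0.02 to 0.07 under the other settings that kept all libraries, and 0.032 to 0.080 when 1 library was left out. Of the 41 members, 13 changed sign when at least 1 of the libraries was left out, and 4 (Ambra1, Atg2a, Atg4d and Pik3c3) under a setting that kept all libraries. Without NSD replicate 1 there were 6, among them Atg4a at 0.074, Atg4a-ps at 0.016 and Gabarap at -0.0030, where the other omissions gave down to -0.48 for Atg4a-ps and up to 0.21 for Gabarap. Over all genes the calls moved more, from 172 higher and 520 lower in edgeR to 668 and 1891 with the block, 671 and 1296 with DESeq2, 51 and 39 for protein-coding genes only, 50 and 80 without a count filter, and 1 and 0 with filterByExpr. The cause of these shifts was not tested.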
